A study of Homo sapiens with 21 samples.

Results

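CRT35 and CRT34 are melanoma lines that both descend from A375, a human melanoma line with a BRAF mutation, and the comparison described here sets the 3 CRT35 libraries grown without inhibitors against the 3 CRT34 libraries grown the same way. These 6 libraries were chosen by their labels from a series of 21. Both lines arose in vivo as tumors tolerant of combined BRAF and MEK inhibition and are labelled SOX10 deficient, and both were kept in DMEM with 10% FBS, 1 µM PLX4720 (a BRAF inhibitor) and 35 nM PD0325901 (a MEK inhibitor). In the libraries called DMSO neither inhibitor was given, and how long the cells had been without them is not given in the sources used here. For context, 3 libraries each of CRT34 Combo and CRT35 Combo (the same lines given both inhibitors) and 3 of the untreated A375 parental line were also used, and 3 each of the A375 SOX10 knockout clones gSOX10 #2 and gSOX10 #4, grown out from individual clones by the methods of the study, entered the fit and the account of chromosomes. Each tolerant line is a single line, so a difference between CRT35 and CRT34 is a difference between these lines and not between kinds of treatment. The labels do not say whether replicates were separate cultures, so the p-values measure the spread between libraries, which may be technical. That spread is pooled over all 21 libraries.

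SOX10 is a transcription factor of the neural crest that maintains melanocyte identity and switches on pigment and glial genes, and melanoma cells that lose it tend to take on a mesenchymal state rich in extracellular matrix. Type IV collagen, made from chains such as COL4A1 and COL4A2, forms the network of basement membranes, and COL4A1 and COL4A2 lie head to head and share the stretch of DNA from which both are transcribed. Smooth muscle genes such as ACTA2 and TAGLN encode the contractile apparatus and are switched on by serum response factor (SRF), which binds a motif called the CArG box, with the coactivators MYOCD, MRTFA and MRTFB.

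The stretches of promoter printed below belong to COL4A1 and COL4A2, of which COL4A1 fell the most of all genes, and to ACTG2 and MYLK, the smooth muscle genes lower in CRT35 whose promoter windows held a CArG box. MYLK had the smallest fall of the smooth muscle genes that were lower, and its libraries overlapped. They come from RefSeq (GRCh38.p14). The first is the whole of the 126 bases between the starts of COL4A1 and COL4A2 (chr13:110307158-110307283, plus strand, read towards COL4A2), with a CCAAT box and a GC box (GGGCGG) in capitals. The others lie upstream of a start listed for ACTG2 (chr2:73892883-73892959, plus strand) and for MYLK (chr3:123620618-123620657, minus strand), with CArG boxes in capitals. A gene can have several listed starts. The values are per gene, so it cannot be told which start the measured RNA came from.
COL4A1-COL4A2: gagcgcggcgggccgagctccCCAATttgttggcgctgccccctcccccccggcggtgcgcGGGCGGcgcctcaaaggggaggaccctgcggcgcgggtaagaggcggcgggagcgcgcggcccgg
ACTG2: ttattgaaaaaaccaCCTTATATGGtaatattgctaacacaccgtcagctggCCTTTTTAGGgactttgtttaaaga
MYLK: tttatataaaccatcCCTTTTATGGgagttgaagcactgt
Read on both strands, CCAAT was found in 34.6% of all 35116 promoter windows of 300 bases in the RefSeq table, GGGCGG in 45% and the CArG box in 1.29%. Of the 11 smooth muscle genes lower in CRT35, 7 had a window in that table and 2 of these, ACTG2 and MYLK, held a CArG box. Among all 26 smooth muscle genes measured, 20 had a window and 8 held one. A match is a description of these letters only, and nothing about binding was measured.

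The values are normalised expression values per gene, so levels are compared between libraries and not between genes. Library depth, read from the commonest low value in each file, taken as the worth of 1 read, ran from 27.1 M reads (CRT35 DMSO replicate 1) to 67.7 M reads (CRT34 DMSO replicate 2). Correlations on the log2 scale were 0.968 to 0.987 within the 2 groups and 0.954 to 0.959 between them. SOX10 (ENSG00000100146.17) was listed at 6.32, 0 and 0.974 in CRT34 DMSO replicates 1 to 3 and at 0 in all 3 CRT35 DMSO libraries, beside a parental mean of 11682. Both lines thus had next to none, and their difference did not pass the test (adjusted p = 0.0711), although it did without CRT34 DMSO replicate 2 (adjusted p = 0.00456). Of the melanocyte markers, MLANA and TYR were at 0 in all 6 libraries, PMEL lay between 12 and 35, and MITF between 1519 and 2779. MITF stood above its parental mean of 1447 in every library, and TYRP1, at means of 386 in CRT34 and 60.6 in CRT35, was above its parental mean of 28.1. Bulk RNA cannot tell fewer cells of a type from less RNA per cell.

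Among 19290 genes that reached a value of 10 in at least 3 of the 21 libraries, 1565 (8.11%) differed between the lines by 2-fold or more with an adjusted p of at most 0.05. Of these, 712 (3.69%) were higher and 853 (4.42%) lower in CRT35, a rise or fall here always meaning CRT35 relative to CRT34. The counts included 560 protein-coding genes and 116 long non-coding RNAs that were higher, and 660 and 141 that were lower. The lower side held the larger differences, with 214 genes changed at least 8-fold and 34 at least 32-fold, against 100 and 17 on the higher side. In 67 of the genes lower in CRT35 all 3 CRT35 libraries were listed at 0, while 19 of those higher were listed at 0 in all 3 CRT34 libraries. CRT35 DMSO replicate 1 had 27.1 M reads and the CRT34 DMSO libraries 53.5 M or more, so a 0 came more readily in that CRT35 library. The values of the lines did not overlap for 690 of the higher and 806 of the lower genes, and for 33.7% of all genes tested. Of the 19290 genes, 5315 had an unadjusted p under 0.05 between the lines without inhibitors (limma, either direction). Counts of list members at that level without inhibitors are to be read beside this number.

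**Figure D1:**
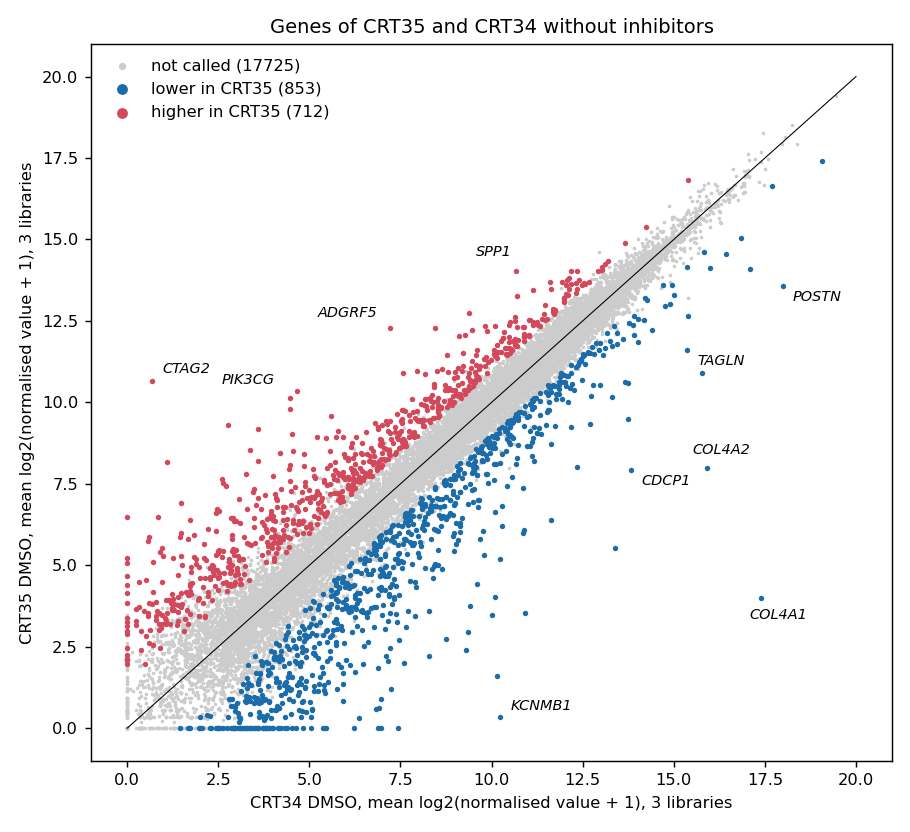
Mean log2(normalised value + 1) of each of 19290 genes in the 3 CRT34 DMSO libraries (horizontal axis) and the 3 CRT35 DMSO libraries (vertical axis), with the line of equality. The 712 genes higher in CRT35 are red, the 853 lower are blue, and COL4A1 lies farthest below the line.

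The largest difference of all was in a basement membrane collagen. COL4A1 (ENSG00000187498.16, chromosome 13, 110148963 to 110307157, minus strand, GRCh38) stood at 236477, 133674 and 157150.0 in CRT34 replicates 1 to 3 and at 15.8, 13.8 and 15.5 in CRT35 (log2 difference -13.38 ± 0.22, adjusted p = 9.61e-19, where ± is the standard error throughout). Its neighbour COL4A2 (ENSG00000134871.18), which shares the promoter printed above, stood at 79719, 51422 and 57584 in CRT34 and at 328, 227 and 211 in CRT35 (log2 difference -7.94 ± 0.24, adjusted p = 3.07e-14). Parental means were 15189.7 for COL4A1 and 13725 for COL4A2, so CRT34 stood above the parental line in both genes and CRT35 far below it. The gap was there with inhibitors too: COL4A1 was 89798, 119188 and 123524 in CRT34 Combo and 20.4, 12.4 and 21.5 in CRT35 Combo, a log2 difference of -12.52 (adjusted p = 3.27e-18).

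COL4A1 and COL4A2 were among the 12 protein-coding genes with the largest falls among called genes whose libraries did not overlap and whose mean in the higher line was at least 10 ppm of all summed values. The other 10 were a mixed set of secreted, membrane and matrix proteins. KCNMB1, the beta subunit of a calcium-activated potassium channel of smooth muscle, was 1582, 659 and 1621 in CRT34 and 0, 0 and 0.989 in CRT35 (log2 difference -9.89 ± 0.46, adjusted p = 5.58e-11). BMP5, a bone morphogenetic protein, was 775, 1560.4 and 1174 in CRT34 and 4.6, 0 and 3.97 in CRT35 (log2 difference -8.54 ± 0.62, adjusted p = 2.91e-08). Neither was high in the parental line, at means of 0 and 5.92, so of these 3 lines CRT34 alone had values above 10. A2M, a broad protease inhibitor, was 26913, 8048 and 5772 in CRT34 and 57.6, 21.5 and 71.8 in CRT35 (log2 difference -7.88 ± 0.98, adjusted p = 2.24e-05). ELN, the elastin of elastic fibers, was 2498, 1758 and 1672 in CRT34 and 26.8, 6.95 and 6.0 in CRT35 (log2 difference -7.39 ± 0.85, adjusted p = 9.50e-06). In both genes every CRT34 library lay far above every CRT35 library. BMP5 was at -7.74 without CRT35 DMSO replicate 2, A2M at -7.22 without CRT34 DMSO replicate 1 and ELN at -8.03 without CRT35 DMSO replicate 1.

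HS6ST3, which sulfates heparan sulfate, was 631, 1849 and 932 in CRT34 and 16.8, 8.98 and 6.52 in CRT35 (log2 difference -6.55 ± 0.46, adjusted p = 2.17e-08), and GPR183, an oxysterol receptor, was 482, 822 and 686 and 11.4, 6.45 and 3.98 (log2 difference -6.39 ± 0.71, adjusted p = 7.26e-06). CDCP1, a transmembrane substrate of SRC family kinases, was tight within groups, at 12900.1, 15530.0 and 15329.6 in CRT34 and 281, 226 and 218 in CRT35 (log2 difference -5.91 ± 0.41, adjusted p = 1.77e-08). CD4, best known as the T cell coreceptor, was 673, 580.1 and 784 in CRT34 and 18, 7.5 and 14.1 in CRT35 (log2 difference -5.65 ± 0.43, adjusted p = 7.15e-08). The last of these, PLCXD3, was 1424, 1351 and 876 in CRT34 and 35, 37.8 and 35.1 in CRT35 (log2 difference -5.01 ± 0.41, adjusted p = 1.59e-07). The parental means of CD4 (0.945), GPR183 (0.353) and PLCXD3 (41.4) were near or below CRT35, and FGF7, the remaining one, is described with the growth factors.

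Among the 12 that rose the most by the same rule, a cancer-testis antigen led. CTAG2 (ENSG00000126890.13, chromosome X, 154651972 to 154653579, minus strand), normally confined to germ cells, was 1.05, 0 and 0.976 in CRT34 and 1733, 1650.3 and 1500.2 in CRT35 (log2 difference 9.99 ± 0.46, adjusted p = 5.29e-11), beside a parental mean of 4.37. CTAG2 has related genes on the same chromosome. One of them, CTAG1B, went the other way, at 652, 574 and 526 in CRT34 and 273, 281 and 111 in CRT35 (log2 difference -1.50 ± 0.40, adjusted p = 0.0145). Whether reads were split between them was not tested. CTAG1B is named here after its values were seen. PIK3CG, the catalytic subunit of PI3-kinase gamma, was 61.5, 13.2 and 17.7 in CRT34 and 1217, 1381 and 1314 in CRT35 (log2 difference 5.67 ± 0.99, adjusted p = 0.000612). G0S2, an inhibitor of the lipase that opens fat droplets, was 15.9, 13.2 and 45.3 in CRT34 and 1697, 839 and 974 in CRT35 (log2 difference 5.64 ± 0.53, adjusted p = 9.13e-07). For CTAG2, PIK3CG and G0S2 the lowest CRT35 library lay far above the highest CRT34 library. CTAG1B lost its call without CRT35 DMSO replicate 3 (adjusted p up to 0.101). PIK3CG was at 6.32 without CRT34 DMSO replicate 1.

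ADGRF5, an adhesion receptor coupled to G proteins, was 179.8, 89.3 and 202 in CRT34 and 5441, 4894 and 4666 in CRT35 (log2 difference 5.07 ± 0.63, adjusted p = 2.36e-05), and the mucin-type glycosyltransferase GCNT3 was 19.3, 15.1 and 31.6 and 925, 889.7 and 836 (log2 difference 5.33 ± 0.33, adjusted p = 3.79e-09). SPP1, the secreted phosphoprotein osteopontin, was 1451, 1543 and 1920.3 in CRT34 and 16464, 17009.9 and 17079 in CRT35 (log2 difference 3.37 ± 0.41, adjusted p = 1.71e-05). LTBP1, which tethers latent TGF-beta to the matrix, was 517, 989 and 567 in CRT34 and 6662, 7961 and 5931 in CRT35 (log2 difference 3.36 ± 0.40, adjusted p = 1.61e-05). The parental line, at 2106 for SPP1 and 225 for LTBP1, was nearer CRT34 or below both. PAMR1 (3.83 on the log2 scale), SMOC1 (3.99), the steroid-metabolising enzyme AKR1C2 (3.34), ANKRD33B (3.0) and the sulfotransferase SULT1A1 (2.92) completed the 12, with adjusted p-values from 4.80e-05 to 0.00118. AKR1C2 and SULT1A1 belong to families of near-identical genes, so their level is less certain. SMOC1 was at 2.83 without CRT34 DMSO replicate 1 and AKR1C2 at 2.66 without CRT34 DMSO replicate 1.

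**Figure D2:**
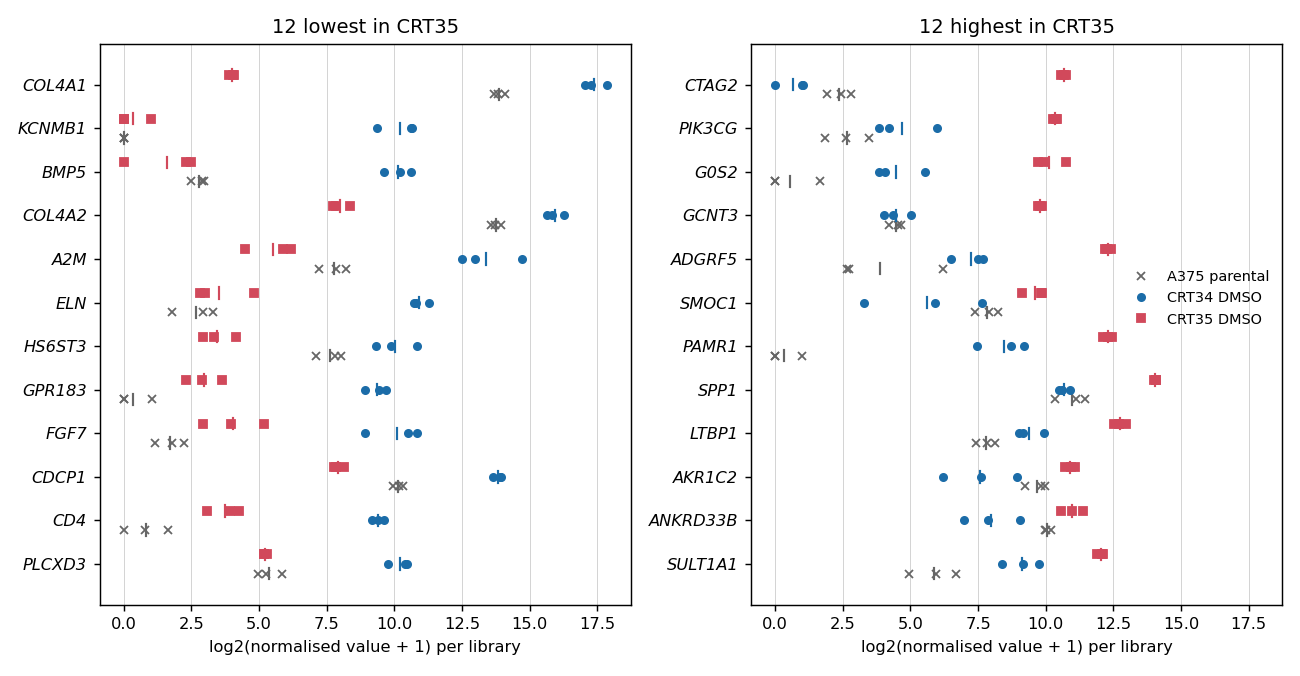
Log2(normalised value + 1) in each library of the A375 parental line (grey crosses), CRT34 DMSO (blue circles) and CRT35 DMSO (red squares) for the 12 protein-coding genes that fell the most (left) and the 12 that rose the most (right), with a bar at the mean of 3 libraries. The CRT34 and CRT35 points do not overlap in any of the 24 genes, which the rule for choosing them required.

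Of 39 gene lists, that of smooth muscle and contractile genes had the largest share of members lower in CRT35, with 11 of 26 lower, 1 higher and 14 not passing, and a median log2 difference of -0.81 against 0.00 over all genes. Over all genes 3.69% were higher and 4.42% lower, and the count of each list below is to be read beside these shares. ACTA2, smooth muscle alpha-actin, was 17261, 4444 and 13544 in CRT34 and 1625, 1026 and 896 in CRT35 (log2 difference -3.15 ± 0.41, adjusted p = 3.86e-05). TAGLN, the actin-binding protein transgelin, was 97876, 20522 and 36909 in CRT34 and 3606, 2584 and 3167 in CRT35 (log2 difference -3.76 ± 0.62, adjusted p = 0.000405). ACTG2, enteric smooth muscle actin, was 1121, 124 and 574 in CRT34 and 20.1, 2.12 and 3.58 in CRT35 (log2 difference -6.01 ± 0.70, adjusted p = 1.08e-05). In all of these CRT34 replicate 1 was the highest library and CRT34 replicate 2 the lowest of its group, and the groups still did not overlap. MYL9, the regulatory light chain of smooth muscle myosin, was 30958, 14168 and 23089 in CRT34 and 6599.6, 4016 and 4109.7 in CRT35 (log2 difference -2.18 ± 0.25, adjusted p = 9.52e-06). ACTA2 was at -3.74 without CRT34 DMSO replicate 2, TAGLN at -3.15 without CRT34 DMSO replicate 1 and ACTG2 at -6.90 without CRT34 DMSO replicate 2.

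The coactivator MYOCD, the master regulator of these genes, varied little within CRT34, at 14049, 13323 and 13782, and was 1237, 657 and 453 in CRT35 (log2 difference -4.26 ± 0.63, adjusted p = 0.000143). SRF itself was 3566, 2598 and 2743 in CRT34 and 1799, 1665 and 1547 in CRT35, a difference of -0.82 that fell short of 2-fold (adjusted p = 0.000531). LMOD1, MYH11, CNN1, CALD1, TPM1 and MYLK were the other members that fell, by -4.69 to -1.16 on the log2 scale, but libraries of TPM1 and MYLK overlapped. MYOCD, MYH11, CNN1, CALD1 and MYLK were named after their values were seen. The intermediate filament gene DES was the exception, at 0, 1.5 and 6.46 in CRT34 and 17.9, 8.78 and 13.2 in CRT35 (log2 difference 2.38 ± 0.67, adjusted p = 0.0205). The actin regulators VCL (-0.05), FLNA (-0.30) and ACTN1 (0.12), which are not confined to muscle, did not pass. Leaving out 1 library at a time left 9 to 11 members lower. In the libraries given inhibitors, 7 of the 26 were lower and none higher in CRT35 (limma, 12 of 26 at an unadjusted p under 0.05 in either direction). TPM1 lost its call without CRT34 DMSO replicates 1 or 3 or CRT35 DMSO replicates 2 or 3 (adjusted p up to 0.122). MYLK lost its call without CRT34 DMSO replicates 1 or 3 or CRT35 DMSO replicates 2 or 3 (adjusted p up to 0.173). DES lost its call without CRT34 DMSO replicates 1 or 2 or CRT35 DMSO replicates 1 or 3 (adjusted p up to 0.103). MYH11 was at -4.70 without CRT34 DMSO replicate 2 and DES at 3.13 without CRT34 DMSO replicate 3.

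**Figure D3:**
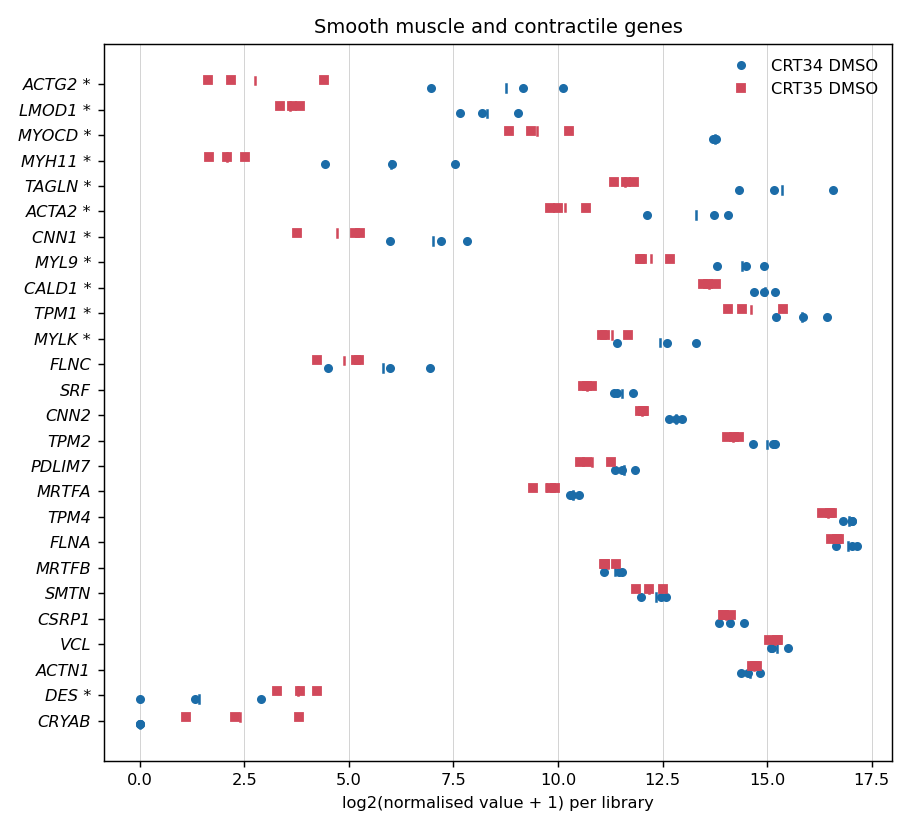
Log2(normalised value + 1) of 26 smooth muscle and contractile genes in the 3 CRT34 DMSO (blue circles) and 3 CRT35 DMSO (red squares) libraries, ordered by difference, with a bar at each group mean; an asterisk marks the 12 that passed the test. The 11 asterisked genes at the top were lower in CRT35, and VCL, CSRP1 and ACTN1 overlapped.

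Genes of the neural crest and glial lineage also leaned lower in CRT35, with 7 of 24 lower, 1 higher and 16 not passing (median -0.52). CDH19, a cadherin of Schwann cell precursors, was 17.7, 185 and 120.3 in CRT34 and listed at 0 in every CRT35 library (adjusted p = 0.000115). SOX11 was 58.6, 18.9 and 31.6 in CRT34 and 2.3, 0 and 0 in CRT35 (log2 difference -4.50 ± 0.54, adjusted p = 1.59e-05). S100B was at 1.62, 6.77 and 7.88 in CRT34 and at 0 throughout CRT35 (adjusted p = 0.00277). All of these were low in both lines against parental means of 2086 (CDH19), 2365 (SOX11) and 498 (S100B), and what remained was higher in CRT34. NGFR, the low-affinity nerve growth factor receptor, was the member that rose, from 13.4, 4.72 and 5.64 to 18.4, 22.4 and 39.7 (log2 difference 1.69 ± 0.40, adjusted p = 0.00671), and it too was far below the parental mean of 747. Leaving out 1 library at a time left 4 to 7 members lower, the 4 without CRT35 DMSO replicate 3. Of the 12 melanocyte differentiation genes measured, TYRP1 (-2.54, adjusted p = 0.00483) and the endothelin receptor EDNRB (-1.47, adjusted p = 0.0012) were lower and none was higher (limma, 4 of 12 at an unadjusted p under 0.05 in either direction).

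Matrix genes moved both ways. Of 30 collagens, 3 were higher and 4 lower (median -0.15). Those that fell were COL4A1, COL4A2, COL7A1, the anchoring fibril collagen (5805, 6129 and 8702 to 2254, 873 and 828, log2 difference -2.52 ± 0.53, adjusted p = 0.0028), and COL22A1 (-3.99). COL9A3, a cartilage collagen, rose from 6.8, 4.03 and 3.2 to 151, 101 and 75.2 (log2 difference 4.27 ± 0.39, adjusted p = 7.11e-07), and COL13A1, a transmembrane collagen, from 531, 272 and 279 to 1608, 1213 and 1449 (log2 difference 2.04 ± 0.32, adjusted p = 0.00028). COL17A1, of the hemidesmosome, was also higher (2.33). COL22A1 lost its call without CRT34 DMSO replicate 1 (adjusted p up to 0.0527). COL17A1 lost its call without CRT34 DMSO replicate 1 (adjusted p up to 0.0619). COL22A1 was at -2.78 without CRT34 DMSO replicate 1 and COL17A1 at 3.05 without CRT34 DMSO replicate 3.

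Of 44 laminins, proteoglycans and matrix glycoproteins, 8 were higher and 7 lower (median -0.06). POSTN, a matricellular protein of fibroblasts, was 353075, 197292 and 263545 in CRT34 and 21892, 8171 and 9799 in CRT35 (log2 difference -4.45 ± 0.31, adjusted p = 1.77e-08), with a parental mean of 50.2. FN1, fibronectin, was 549511, 556080.0 and 549027 in CRT34 and 256639, 144729 and 139845 in CRT35 (log2 difference -1.67 ± 0.32, adjusted p = 0.00133), with a parental mean of 7504. DCN, the proteoglycan decorin, was 14639, 13693 and 10944 in CRT34 and 2771, 1116 and 1263 in CRT35 (log2 difference -3.04 ± 0.52, adjusted p = 0.000515). Thus both lines lay well above the parental line for these genes and CRT34 higher still, and CRT35 replicate 1 was the highest CRT35 library in each. The basement membrane linker NID2 rose from 2379, 2125 and 2269 to 15319.5, 9099 and 10309 (log2 difference 2.32 ± 0.34, adjusted p = 0.000126), the microfibril protein FBN2 from 221, 128 and 221 to 846, 779 and 968 (log2 difference 2.22 ± 0.39, adjusted p = 0.000673), and the laminin chain LAMB3 from 4057, 4415 and 5613 to 22638, 14422 and 14769 (log2 difference 1.86 ± 0.37, adjusted p = 0.00204). With 1 library left out there were 7 to 10 higher and 4 to 7 lower, the smaller counts of lower genes without CRT34 DMSO replicate 1, CRT35 DMSO replicate 2 or CRT35 DMSO replicate 3.

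Among 41 proteases, inhibitors and crosslinkers of the matrix, 5 were lower and 1 higher (median -0.03). The collagenase MMP1 was 69454, 167921 and 228499 in CRT34 and 40168, 10789 and 12001 in CRT35 (log2 difference -3.0 ± 0.96, adjusted p = 0.0399), and the stromelysin MMP3 was 7304, 4435 and 9005 and 1404, 509 and 379 (log2 difference -3.36 ± 1.03, adjusted p = 0.034). MMP10 (-2.96, adjusted p = 0.0332), SERPINE2 (-1.87, adjusted p = 0.0197) and ADAMTS5 (-2.01, adjusted p = 0.0237) were the others. MMP1, MMP3 and MMP10 did not overlap between the lines, but CRT35 replicate 1 was 2 or more times higher than the other CRT35 libraries for each. These calls depended on single libraries: leaving 1 out gave 0 to 5 members lower, and fewer without CRT34 DMSO replicate 2, CRT34 DMSO replicate 3, CRT35 DMSO replicate 2 or CRT35 DMSO replicate 3. The test also pools the spread of all 21 libraries, so the spread within CRT34 Combo, outside this comparison, enters these p-values. In CRT34 Combo replicates 1 to 3, MMP3 was 337, 349 and 13334 and MMP1 was 626, 3079 and 25199. ADAMTS12 was the member that rose (1.23, adjusted p = 0.000962). MMP1 lost its call without CRT34 DMSO replicates 2 or 3 or CRT35 DMSO replicates 2 or 3 (adjusted p up to 0.139). MMP3 lost its call without CRT34 DMSO replicates 1, 2 or 3 or CRT35 DMSO replicates 2 or 3 (adjusted p up to 0.129). MMP10 lost its call without CRT34 DMSO replicates 1, 2 or 3 or CRT35 DMSO replicates 2 or 3 (adjusted p up to 0.142). SERPINE2 lost its call without CRT34 DMSO replicates 2 or 3 or CRT35 DMSO replicates 2 or 3 (adjusted p up to 0.0881). ADAMTS5 lost its call without CRT34 DMSO replicates 2 or 3 or CRT35 DMSO replicates 2 or 3 (adjusted p up to 0.14). MMP1 was at -3.61 without CRT35 DMSO replicate 1, MMP10 at -3.71 without CRT35 DMSO replicate 1 and ADAMTS5 at -2.87 without CRT34 DMSO replicate 1.

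Of the 38 growth factors and IGF-binding proteins, 9 were lower, 4 higher and 25 not passing (median -0.08). FGF7, an epithelial growth factor made by mesenchymal cells, was 481, 1811 and 1455 in CRT34 and 35, 14.7 and 6.68 in CRT35 (log2 difference -6.05 ± 0.72, adjusted p = 1.47e-05). FGF2, basic fibroblast growth factor, was 30381, 29541 and 30741 in CRT34 and 10402, 6418 and 8532 in CRT35 (log2 difference -1.87 ± 0.28, adjusted p = 0.000184). The IGF-binding proteins moved in both directions: IGFBP5 fell from 36476, 94156 and 49837 to 3034, 1607 and 1446 (log2 difference -4.85 ± 0.58, adjusted p = 1.61e-05), and IGFBP4 rose from 5471, 5478 and 4583 to 17435, 16019.5 and 17122 (log2 difference 1.71 ± 0.24, adjusted p = 7.77e-05). IGFBP7 fell by 1.47 on the log2 scale and IGFBP6 rose by 1.55 (adjusted p = 3.24e-05 and 0.00169). AREG, PDGFB, EGF, TGFA and IGF2, named after their values were seen, were the other members that fell, and KITLG and CSF1 the others that rose. The count of higher growth factors ran from 2 to 6 with 1 library left out, moving over 1.5 times without CRT34 DMSO replicates 2 or 3 or CRT35 DMSO replicate 3. IGF2 lost its call without CRT34 DMSO replicates 2 or 3 or CRT35 DMSO replicates 2 or 3 (adjusted p up to 0.216). KITLG lost its call without CRT34 DMSO replicates 2 or 3 or CRT35 DMSO replicates 2 or 3 (adjusted p up to 0.104). CSF1 lost its call without CRT34 DMSO replicates 2 or 3 or CRT35 DMSO replicates 1, 2 or 3 (adjusted p up to 0.0919). TGFA was at -2.84 without CRT34 DMSO replicate 1 and KITLG at 2.47 without CRT34 DMSO replicate 1.

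Of 38 genes of the TGF-beta and BMP pathway, 2 were higher, 2 lower and 34 not passing (median -0.18), or 5.26% in each direction beside 3.69% higher and 4.42% lower over all genes. TGFB2 fell from 8419, 8760.5 and 7209 to 2651, 1169.9 and 1042 (log2 difference -2.45 ± 0.40, adjusted p = 0.000361), and BMP2 from 2762, 2917 and 2238 to 805, 392 and 437 (log2 difference -2.34 ± 0.31, adjusted p = 5.14e-05). For both ligands CRT34 was the high line, and the lines did not overlap. FST, follistatin, which sequesters activins, rose from 1954, 706 and 518 to 5401, 4954 and 5387 (log2 difference 2.55 ± 0.44, adjusted p = 0.000517), as did LTBP1 above. The count of lower TGF-beta family members ran from 2 to 4 with 1 library left out, moving over 1.5 times without CRT34 DMSO replicate 1 or CRT35 DMSO replicate 1.

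Integrins, the receptors for matrix, changed in 4 of 20 members, 3 higher and 1 lower (median -0.06). ITGA6, a laminin receptor subunit, rose from 5707, 4087 and 3811 to 12088, 15074 and 16316 (log2 difference 1.69 ± 0.23, adjusted p = 6.48e-05), and ITGB2 from 31.1, 38.3 and 85.7 to 362, 403 and 323 (log2 difference 2.92 ± 0.55, adjusted p = 0.00114). ITGB8, which activates latent TGF-beta, fell from 705, 3373 and 1444 to 155, 207 and 279.8 (log2 difference -2.85 ± 0.52, adjusted p = 0.000978). ITGA10 was also higher (1.08). ITGA10 lost its call without CRT35 DMSO replicate 1 (0.86 at the least, under 2-fold).

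Among 44 receptor tyrosine kinases, 2 were higher and none lower (limma, 14 of 44 at an unadjusted p under 0.05 in either direction). EPHB3, an ephrin receptor, rose from 5.93, 14.5 and 19.2 to 35.4, 133 and 104 (log2 difference 2.62 ± 0.59, adjusted p = 0.00476). AXL, a kinase of invasive, poorly differentiated melanoma, was 14495, 6450.1 and 6188 in CRT34 and 17304, 18719 and 18825 in CRT35 (log2 difference 1.13 ± 0.30, adjusted p = 0.0158), both below the parental mean of 20297. Its CRT34 replicate 1 lay much nearer CRT35. AXL was also 1 of 3 higher members among 26 EMT and invasion genes, beside FOXC2 (2.59, adjusted p = 1.71e-05) and S100A4 (1.13, adjusted p = 0.00974). TAGLN, SPARC, TNC and TPM1 were the 4 lower members of that list, and leaving out 1 library gave 1 to 5, with the smallest counts without CRT34 DMSO replicate 1, CRT35 DMSO replicate 2 or CRT35 DMSO replicate 3. AXL lost its call without CRT34 DMSO replicates 2 or 3 or CRT35 DMSO replicates 2 or 3 (adjusted p up to 0.086). S100A4 lost its call without CRT34 DMSO replicate 1 (0.69 at the least, under 2-fold). SPARC lost its call without CRT34 DMSO replicate 1 or CRT35 DMSO replicates 2 or 3 (-0.86 at the least, under 2-fold). TNC lost its call without CRT34 DMSO replicate 1 or CRT35 DMSO replicates 2 or 3 (adjusted p up to 0.0648). TPM1 lost its call without CRT34 DMSO replicates 1 or 3 or CRT35 DMSO replicates 2 or 3 (adjusted p up to 0.122). TAGLN was at -3.15 without CRT34 DMSO replicate 1.

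Axon guidance genes changed often and in both directions, with 9 of 40 higher and 6 lower (median 0.08). ROBO2, a receptor for SLIT, rose from 28.1, 9.84 and 32.1 to 251, 292 and 208 (log2 difference 3.51 ± 0.56, adjusted p = 0.000285), while its relative ROBO1 fell from 10065, 12274 and 10846 to 6413, 3670.0 and 3868 (log2 difference -1.29 ± 0.31, adjusted p = 0.00734). NTN4, a laminin-binding netrin, rose from 523, 230.4 and 391 to 2343, 1602 and 2175 (log2 difference 2.47 ± 0.42, adjusted p = 0.000517). PLXNB1, a semaphorin receptor, fell from 996, 1687 and 1453 to 393, 305 and 412 (log2 difference -1.87 ± 0.26, adjusted p = 6.95e-05), and the ephrins split, with EFNB1 at 1.26, EFNA1 at -2.63 and EFNB2 at -1.10 on the log2 scale. EFNB2 lost its call without CRT34 DMSO replicate 1 (-0.91 at the least, under 2-fold).

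In the clustered protocadherins, cell-surface identity proteins expressed in a stochastic choice, 4 of 50 were higher and 2 lower (median 0.07). These are shares of 8% and 4%, beside 3.69% higher and 4.42% lower over all genes. PCDHGA12 fell from 90.8, 55.8 and 84.8 to 5.84, 1.36 and 1.26 (log2 difference -4.53 ± 0.44, adjusted p = 1.54e-06) and PCDHA3 from 285, 352 and 365 to 28.5, 27 and 16.4 (log2 difference -3.78 ± 0.27, adjusted p = 2.22e-08), while PCDHB11, PCDHGA10 and PCDHGB7 were higher and PCDHGA4 rose from 126, 90.5 and 163 to 602, 319 and 356 (log2 difference 1.72 ± 0.29, adjusted p = 0.000507). Members of a cluster share exons, so reads may have been divided between them. Of 40 cancer-testis antigens, 4 were higher and 6 lower (median -0.05). MAGEA9 rose from 18.3, 15.1 and 32.8 to 239, 179 and 161 (log2 difference 3.12 ± 0.67, adjusted p = 0.00323), and SSX4 fell from 139.7, 51.8 and 92.8 to 4.47, 4.25 and 1.15 (log2 difference -4.49 ± 0.42, adjusted p = 9.83e-07). These families also hold near-identical copies. The 2 HOX genes of 36 that passed were HOXB8 (1.16, adjusted p = 0.036) and HOXC12 (-1.13, adjusted p = 0.0133). PCDHB11 lost its call without CRT34 DMSO replicate 1 (0.99 at the least, under 2-fold). HOXB8 lost its call without CRT34 DMSO replicate 1 or CRT35 DMSO replicates 1, 2 or 3 (adjusted p up to 0.157). HOXC12 lost its call without CRT34 DMSO replicate 1 or CRT35 DMSO replicate 3 (adjusted p up to 0.0643). PCDHGB7 was at 1.37 without CRT34 DMSO replicate 1.

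Of 44 interferon-stimulated genes, 5 were higher and 3 lower (median 0.37), the higher ones being MX1, SAMD9L, IFIT1, IFIT2 (named after its values were seen) and IFI44L and the lower ones CMPK2, GBP1 and GBP2. MX1, an antiviral GTPase, rose from 394, 269.5 and 383 to 1505, 1650.2 and 1403 (log2 difference 2.14 ± 0.23, adjusted p = 5.41e-06), and SAMD9L from 1402, 2034 and 2269 to 5185, 4569 and 5473 (log2 difference 1.44 ± 0.24, adjusted p = 0.000373). CMPK2 fell from 197, 205 and 184 to 85.5, 80.5 and 98.2 (log2 difference -1.14 ± 0.27, adjusted p = 0.00752). Higher members numbered 2 to 5 when 1 library was left out, with fewer without CRT34 DMSO replicate 1, CRT35 DMSO replicate 1 or CRT35 DMSO replicate 3. Of 29 MHC genes, 3 of class II were lower and none higher (limma, 8 of 29 at an unadjusted p under 0.05 in either direction). Over all genes, 5315 of 19290 had an unadjusted p under 0.05 in the same test. CD74, the class II chaperone, fell from 4052, 2534 and 2355 to 913, 625 and 449 (log2 difference -2.18 ± 0.27, adjusted p = 2.54e-05), and HLA-DRA from 56.1, 50.1 and 30.5 to 11.4, 10.9 and 14 (log2 difference -1.79 ± 0.29, adjusted p = 0.000359). Parental means of 45862 and 18634 were far above both lines. HLA-DQB1 was 1.22, 22.1 and 6.1 in CRT34 and 0 in all CRT35 libraries. IFIT1 lost its call without CRT34 DMSO replicate 1 or CRT35 DMSO replicate 3 (adjusted p up to 0.0668). IFIT2 lost its call without CRT34 DMSO replicates 1, 2 or 3 or CRT35 DMSO replicates 1, 2 or 3 (adjusted p up to 0.146). IFI44L lost its call without CRT34 DMSO replicate 1 or CRT35 DMSO replicates 1 or 3 (adjusted p up to 0.0904). GBP1 lost its call without CRT34 DMSO replicate 3 or CRT35 DMSO replicate 2 (adjusted p up to 0.0589). GBP2 lost its call without CRT34 DMSO replicate 2 (adjusted p up to 0.0544). HLA-DQB1 lost its call without CRT34 DMSO replicate 2 (adjusted p up to 0.0813). GBP2 was at -2.46 without CRT34 DMSO replicate 1.

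NF-kappaB targets and cytokines showed 2 of 42 higher and 4 lower (median 0.00). These are shares of 4.76% and 9.52%, beside 3.69% higher and 4.42% lower over all genes. NFKBIZ, a nuclear regulator of this pathway, fell from 5662, 7826 and 8015 to 2289, 1118 and 1253 (log2 difference -2.26 ± 0.41, adjusted p = 0.000796), and IL11 from 8160.5, 23319 and 13504 to 3452, 1114 and 937 (log2 difference -3.16 ± 0.86, adjusted p = 0.0167). The chemokine CCL26 rose from 9.78, 24.8 and 21.7 to 198, 138 and 149.9 (log2 difference 3.12 ± 0.64, adjusted p = 0.00232). With any 1 library gone there were 1 to 3 lower members, CCL5 and CSF3 being lost most often, with CRT34 DMSO replicates 1, 2 and 3 and CRT35 DMSO replicates 2 and 3 each changing the count by more than 1.5 times. The count of higher NF-kappaB targets ran from 1 to 3 with 1 library left out, moving over 1.5 times without CRT34 DMSO replicates 2 or 3 or CRT35 DMSO replicates 1, 2 or 3. IL11 lost its call without CRT34 DMSO replicate 2 or CRT35 DMSO replicates 2 or 3 (adjusted p up to 0.077). CCL5 lost its call without CRT34 DMSO replicates 1, 2 or 3 or CRT35 DMSO replicates 2 or 3 (adjusted p up to 0.172). CSF3 lost its call without CRT34 DMSO replicates 1, 2 or 3 or CRT35 DMSO replicates 1, 2 or 3 (adjusted p up to 0.147). The spread pooled in the test includes that within CRT34 Combo replicates 1 to 3. There CCL5 was 16.6, 39.2 and 567 and CSF3 was 0, 1.39 and 245. IL11 was at -3.74 without CRT35 DMSO replicate 1 and CCL5 at -3.82 without CRT35 DMSO replicate 1.

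Lists of growth and of signalling below the drug targets held few calls, as did all genes, of which 3.69% were higher and 4.42% lower. The shares were 3.57% higher for MAPK outputs, 2.63% higher for mitosis and G2, and 2.33% lower for replication and E2F genes. Of 28 outputs of MAPK signalling, DUSP4, a MAPK phosphatase, was higher (2778, 5113 and 4592 to 9121, 10044 and 9185, log2 difference 1.23 ± 0.39, adjusted p = 0.0403) and none was lower (limma, 8 of 28 at an unadjusted p under 0.05 in either direction). No member of the MYC target list of 37 or the p53 target list of 28 passed (limma, 5 in each at an unadjusted p under 0.05), the largest differences being GNL3 at -0.88 and FDXR at 0.90. The mitosis and G2 list had a median of 0.68 over 38 genes, but only DLGAP5 passed (log2 difference 1.21 ± 0.35, adjusted p = 0.0246). The smallest difference in this list was 0.10, so every member stood higher in CRT35. The sum of the list ran from 262438 to 314749 in CRT34 and from 372892 to 522723 in CRT35, without overlap. At an unadjusted p under 0.05 (limma) there were 12 of the 38, beside 5315 of all 19290 genes. CCNE1, which drives entry into S phase, fell from 2194, 913 and 1157 to 558, 614 and 494 (log2 difference -1.26 ± 0.26, adjusted p = 0.00221) and was the sole call among 43 replication and E2F genes and among 17 cyclins and inhibitors. DUSP4 lost its call without CRT34 DMSO replicates 1 or 3 or CRT35 DMSO replicates 1, 2 or 3 (adjusted p up to 0.149). DLGAP5 lost its call without CRT34 DMSO replicates 1, 2 or 3 or CRT35 DMSO replicates 2 or 3 (adjusted p up to 0.115). CCNE1 lost its call without CRT34 DMSO replicate 1 (-0.89 at the least, under 2-fold).

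IAP family and death receptor genes had 2 of 31 higher, the TRAIL receptor TNFRSF10A (1.05, adjusted p = 0.00108) and the kinase MAP3K14 (1.11, adjusted p = 0.00358), and none lower (limma, 5 of 31 at an unadjusted p under 0.05 in either direction). BMF was the 1 lower gene of 18 in the BCL2 family. The IAP list had 6.45% higher, beside 3.69% higher and 4.42% lower over all genes. Shares higher and lower were 7.69% and 5.13% for the WNT genes that follow, 9.52% and 9.52% for Notch genes, and 6.67% and 10% for YAP and TEAD targets. WNT genes had 3 higher (WNT11, RNF43 and TNFRSF19) and 2 lower (WNT9A and LEF1) of 39, among them LEF1, a transcription factor of the pathway, which fell from 412, 185 and 246 to 33.8, 61.4 and 49.3 (log2 difference -2.48 ± 0.29, adjusted p = 1.38e-05). Notch genes had 2 higher and 2 lower of 21, with JAG1, a ligand, at 1.18 and DLL4, another ligand, at -2.17, beside HEY2 (higher) and HEYL (lower). YAP and TEAD targets had 2 higher and 3 lower of 30, with MYOF (1.22) and AXL (1.13) higher and TGFB2 (-2.45), TEAD2 (-1.19) and RBMS3 lower. The count of higher YAP and TEAD targets ran from 1 to 4 with 1 library left out, moving over 1.5 times without CRT34 DMSO replicates 1, 2 or 3 or CRT35 DMSO replicates 2 or 3. The count of lower WNT genes ran from 1 to 2 with 1 library left out, moving over 1.5 times without CRT34 DMSO replicates 1, 2 or 3 or CRT35 DMSO replicates 2 or 3. The count of higher Notch genes ran from 0 to 2 with 1 library left out, moving over 1.5 times without CRT34 DMSO replicate 1 or CRT35 DMSO replicates 1 or 2. TNFRSF10A lost its call without CRT34 DMSO replicates 2 or 3 (0.94 at the least, under 2-fold). BMF lost its call without CRT34 DMSO replicates 2 or 3 or CRT35 DMSO replicates 2 or 3 (adjusted p up to 0.217). RNF43 lost its call without CRT34 DMSO replicates 1 or 3 or CRT35 DMSO replicates 1 or 3 (adjusted p up to 0.083). WNT9A lost its call without CRT34 DMSO replicates 1, 2 or 3 or CRT35 DMSO replicates 1, 2 or 3 (adjusted p up to 0.17). JAG1 lost its call without CRT34 DMSO replicate 1 or CRT35 DMSO replicate 1 (0.95 at the least, under 2-fold). HEY2 lost its call without CRT34 DMSO replicates 1 or 2 or CRT35 DMSO replicates 1, 2 or 3 (adjusted p up to 0.213). AXL lost its call without CRT34 DMSO replicates 2 or 3 or CRT35 DMSO replicates 2 or 3 (adjusted p up to 0.086). RBMS3 lost its call without CRT34 DMSO replicate 1 or CRT35 DMSO replicate 2 (-0.88 at the least, under 2-fold). WNT11 was at 2.05 without CRT34 DMSO replicate 1.

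Hypoxia and glycolysis had 2 of 40 lower, PFKFB4 and PDK4, and none higher. That is 5% lower, beside 4.42% over all genes. The median of the list was 0.16, above 0. Its sum ran from 978649 to 1.19e+06 in CRT34 and from 1.22e+06 to 1.39e+06 in CRT35. The unfolded protein and amino acid response had 1 higher, CREB3L1 (1.86, adjusted p = 0.000673), and 3 lower of 27, the chaperones DNAJC3 (-1.06) and DNAJB9 (-1.24) and the transcription factor CEBPB. The count of lower hypoxia and glycolysis genes ran from 0 to 3 with 1 library left out, moving over 1.5 times without CRT34 DMSO replicate 2 or CRT35 DMSO replicates 2 or 3. SDHA, a subunit of succinate dehydrogenase, rose from 5302, 5315 and 5438 to 13250.2, 14191 and 14125 (log2 difference 1.37 ± 0.14, adjusted p = 3.00e-06) and was the 1 call among 35 oxidative phosphorylation genes and among 20 housekeeping genes. HMGCS1 was the 1 call of 31 sterol and fatty acid synthesis genes (1.07, adjusted p = 0.00439). PFKFB4 lost its call without CRT34 DMSO replicate 2 or CRT35 DMSO replicates 2 or 3 (adjusted p up to 0.0554). PDK4 lost its call without CRT34 DMSO replicate 2 or CRT35 DMSO replicate 2 (adjusted p up to 0.0744). DNAJC3 lost its call without CRT35 DMSO replicate 2 (-0.92 at the least, under 2-fold). CEBPB lost its call without CRT34 DMSO replicate 2 or CRT35 DMSO replicate 2 (adjusted p up to 0.0585). HMGCS1 lost its call without CRT34 DMSO replicate 2 (0.86 at the least, under 2-fold). PDK4 was at -0.93 without CRT34 DMSO replicate 2.

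Of a panel of 24 genes of melanoma phenotype, cell cycle and inhibitor tolerance, put together for this comparison with earlier results known and so no independent evidence of a direction, NGFR and AXL were higher and COL4A1 and FN1 lower. BIRC3, which encodes cIAP2, was 4648, 3107 and 4003 in CRT34 and 8134, 3202 and 5047 in CRT35 (log2 difference 0.39 ± 0.71, adjusted p = 0.778), and BIRC2, which encodes cIAP1, was 13636, 10293 and 10807 and 12317, 8265 and 10328 (log2 difference -0.18 ± 0.18, adjusted p = 0.595). WNT5A, a non-canonical WNT ligand, was 21938, 38345 and 33483 in CRT34 and 20620.3, 9925 and 11146 in CRT35, which did not overlap but did not pass (log2 difference -1.21 ± 0.43, adjusted p = 0.0688), except without CRT35 DMSO replicate 1 (adjusted p = 0.0398). MKI67, the proliferation antigen, was 19043, 15037 and 12415 in CRT34 and 21562, 28821 and 32455 in CRT35, apart but not past the threshold (log2 difference 0.83 ± 0.41, adjusted p = 0.196). RB1, on chromosome 13, was 9507, 8478 and 7795 and 5730.2, 5374 and 6345, a difference of -0.56 (adjusted p = 0.0436) that was under 2-fold. The MAPK phosphatase DUSP6 (0.40), EGFR (0.16), PDGFRB (0.72), MYC (0.31), SOX9 (0.23), TGFB1 (0.27) and XIAP (0.19) did not pass. AXL lost its call without CRT34 DMSO replicates 2 or 3 or CRT35 DMSO replicates 2 or 3 (adjusted p up to 0.086).

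Markers of other cell types were measured beside these results. The highest members of the lists were CD68 (leukocyte), ENG (endothelial), KRT18 (keratinocyte and epithelial) and POSTN (fibroblast), and these weigh most in the sums below. Of the leukocyte markers, TYROBP was at 0 in all 6 libraries and CD3E, FCGR3A, MS4A1, PTPRC and SPI1 stayed under 10, and the whole list summed to 6356 to 12008 in CRT34 and 9896 to 11414 in CRT35, with 2 of 14 measured members higher (ITGAX and ITGAM) and 1 lower (CD4). Endothelial markers CLDN5 and SOX17 were at 0, ERG and PLVAP under 10, and the list summed to 12504 to 17620.0 in CRT34 and 14433 to 19716 in CRT35, with VWF higher and EMCN and CDH5 lower of 14. Of the keratinocyte and epithelial markers KRT14 was at 0 and CDH1, KRT5 and TP63 were under 10, and the list summed to 37533 to 39128 in CRT34 and 43039 to 45339.8 in CRT35, with 3 of 26 higher (DSC2, DSC3 and SFN) and KRT17 lower. Fibroblast markers summed to 405804 to 624222 in CRT34 and 248805 to 366072 in CRT35, with PI16 and S100A4 higher and POSTN, ACTA2 and DCN lower of 15. That sum moved with the matrix and contractile genes, whose members it shares, and any part of fibroblasts in the result was not tested. ITGAM lost its call without CRT35 DMSO replicate 1 (adjusted p up to 0.0765). CDH5 lost its call without CRT35 DMSO replicate 2 (adjusted p up to 0.0597). SFN lost its call without CRT34 DMSO replicates 1, 2 or 3 or CRT35 DMSO replicates 2 or 3 (adjusted p up to 0.138). KRT17 lost its call without CRT35 DMSO replicate 3 (adjusted p up to 0.061). S100A4 lost its call without CRT34 DMSO replicate 1 (0.69 at the least, under 2-fold). EMCN was at -4.06 without CRT35 DMSO replicate 1 and ACTA2 at -3.74 without CRT34 DMSO replicate 2.

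The difference between the lines also followed chromosome position. Over genes with a mean value of at least 100, the median log2 difference was -0.45 on chromosome 3 (734 genes), -0.43 on chromosome 20 (345 genes) and 0.35 on chromosome 14 (428 genes), against 0.02 over 10826 genes of the chromosomes other than 3, 5, 13, 14 and 20. On chromosome 13 it lay mostly at the end of the long arm, where the 68 genes that start after the first 90 Mb had a median of -0.94, with 89.7% below 0, and the other 169 had -0.11. On chromosome 5 the 109 genes that start within the first 50 Mb had a median of 0.78, with 92.7% above 0, and the other 542 had 0.04. Of all 274 windows of 10 Mb with 15 or more such genes, the 3 lowest medians were the last 3 windows of chromosome 13 (-1.15, -1.0 and -0.71), and the 4 highest were on the first 50 Mb of chromosome 5 (0.74 to 0.85). The windows and the bounds on chromosomes 5 and 13 were set after the values were seen, so no test is given.

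Each library showed this on its own. Relative to the parental mean, the median of the 68 genes at the end of chromosome 13 was -1.11, -1.22 and -1.13 in CRT35 replicates 1 to 3, and -0.14, -0.20 and -0.16 in CRT34 replicates 1 to 3. At the start of chromosome 5 the medians were 0.71, 0.74 and 0.80 in CRT35 and 0.01, -0.06 and 0.00 in CRT34. On chromosome 3 they were -0.51, -0.49 and -0.46 in CRT35 and -0.07, -0.09 and -0.10 in CRT34. Thus CRT35 departed from the parental line at these places and CRT34 stayed near it. Libraries given inhibitors, which are separate from the 6, had line differences of -0.87 at the end of chromosome 13, 0.76 at the start of chromosome 5, -0.46 on chromosome 3, -0.35 on chromosome 20 and 0.30 on chromosome 14. The SOX10 knockout clones gSOX10 #2 and gSOX10 #4 were at -0.25 ± 0.09 and -0.47 ± 0.12 (SD, n = 3) at the end of chromosome 13 and at -0.13 ± 0.02 and -0.04 ± 0.12 at the start of chromosome 5.

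**Figure D4:**
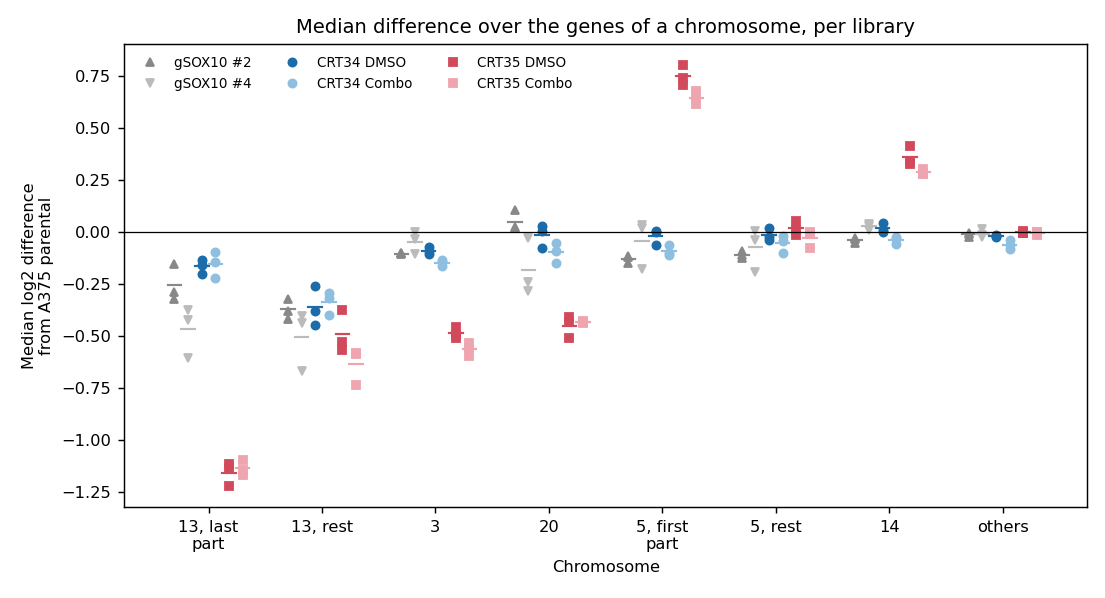
Median log2 difference from the mean of the A375 parental libraries over the genes of a chromosome or part of one (horizontal axis), 1 point per library and a bar at the mean of 3, for the gSOX10 #2 and #4 clones, CRT34 and CRT35 with (Combo) and without (DMSO) inhibitors. CRT35 stands farthest from 0 on chromosomes 3, 14 and 20, the last part of 13 and the first part of 5, with and without inhibitors.

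These places held a part of the called genes, and most lay elsewhere. At the end of chromosome 13, 37 of 97 measured genes of any level (38.1%) were lower and 2 higher, and at the start of chromosome 5, 47 of 174 (27.0%) were higher and 2 lower. Chromosome 3 held 102 lower (9.91%) and 25 higher (2.43%) of 1029, and chromosome 20 held 52 lower (10.6%) and 14 higher (2.85%) of 491. On chromosome 14, 34 were higher (5.60%) and 16 lower (2.64%) of 607. Over all genes 3.69% were higher and 4.42% lower. Outside chromosomes 3, 5, 13, 14 and 20 there remained 546 higher (3.46%) and 598 lower (3.79%) of 15781 genes. COL4A1, COL4A2, HS6ST3 and GPR183, 4 of the 12 largest falls, lie at the end of chromosome 13, with differences of -13.38 to -6.39 beside the local median of -0.94.

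Called genes also lay side by side. There were 13 runs of 3 or more consecutive protein-coding genes called in 1 direction, 12 of them lower and 5 on chromosome 13. The longest held 9 genes on chromosome 13 (95677139 to 98577940), DNAJC3, UGGT2, HS6ST3, OXGR1, MBNL2, RAP2A, IPO5, FARP1 and STK24. Its kinase STK24 was 6953, 7644 and 6874 in CRT34 and 2791, 2936 and 2949 in CRT35 (log2 difference -1.31 ± 0.10, adjusted p = 1.25e-07), and the glycoprotein folding sensor UGGT2 was 4572, 3341 and 3315 and 1459, 1043 and 1207 (log2 difference -1.59 ± 0.15, adjusted p = 1.03e-06). The small GTPase RAP2A was 2952, 3119.7 and 3157 and 955, 1115 and 1042 (log2 difference -1.57 ± 0.18, adjusted p = 7.74e-06). Most of the 9 thus lay near the local shift, whereas HS6ST3 (-6.55) and OXGR1 (-3.71) went far beyond it. DNAJC3 lost its call without CRT35 DMSO replicate 2 (-0.92 at the least, under 2-fold). IPO5 lost its call without CRT34 DMSO replicate 1 (-0.91 at the least, under 2-fold). OXGR1 was at -2.92 without CRT35 DMSO replicate 1.

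The next run held 5 genes on the same arm (99962964 to 100675093), ZIC5, ZIC2, PCCA, GGACT and TMTC4, with differences of -2.43 to -1.05. Next came 4 metalloproteinases on chromosome 11 (MMP10, MMP1, MMP3 and MMP12, 102770502 to 102874982) and 4 genes on chromosome 20 (FERMT1, BMP2, HAO1 and TMX4, 6074845 to 8019805). The single run that was higher lay at the start of chromosome 5, with CCDC127 (1.35), ENSG00000286001 and SDHA (1.37). TMTC4 lost its call without CRT34 DMSO replicate 1 or CRT35 DMSO replicates 2 or 3 (adjusted p up to 0.0954). MMP10 lost its call without CRT34 DMSO replicates 1, 2 or 3 or CRT35 DMSO replicates 2 or 3 (adjusted p up to 0.142). MMP1 lost its call without CRT34 DMSO replicates 2 or 3 or CRT35 DMSO replicates 2 or 3 (adjusted p up to 0.139). MMP3 lost its call without CRT34 DMSO replicates 1, 2 or 3 or CRT35 DMSO replicates 2 or 3 (adjusted p up to 0.129). MMP12 lost its call without CRT34 DMSO replicates 1, 2 or 3 or CRT35 DMSO replicates 2 or 3 (adjusted p up to 0.17). HAO1 lost its call without CRT34 DMSO replicates 2 or 3 or CRT35 DMSO replicates 2 or 3 (adjusted p up to 0.208). ENSG00000286001 lost its call without CRT34 DMSO replicates 1 or 2 or CRT35 DMSO replicates 1, 2 or 3 (adjusted p up to 0.216). MMP10 was at -3.71 without CRT35 DMSO replicate 1, MMP1 at -3.61 without CRT35 DMSO replicate 1, MMP12 at -1.57 without CRT35 DMSO replicate 3, HAO1 at -2.75 without CRT35 DMSO replicate 1 and ENSG00000286001 at 1.05 without CRT34 DMSO replicate 1.

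Whether the line difference was the same with the inhibitors was asked of the 6 Combo libraries. Their values are not part of the differences above, but their spread is pooled in the same fit and they count in the gene filter. The library labelled CRT34 Combo replicate 3 stood apart: it correlated at 0.963 to 0.972 with the CRT34 DMSO libraries and at 0.959 and 0.969 with the other CRT34 Combo libraries. CXCL8, a chemokine under NF-kappaB, was 1203, 3476 and 84574 in CRT34 Combo replicates 1 to 3, and 266134, 142497 and 161205 in CRT34 DMSO. With inhibitors 1333 genes (6.91%) differed between the lines, 612 higher (3.17%) and 721 lower (3.74%) in CRT35. The count was 1466 without that library and 953 with a replicate block, since same-numbered Combo libraries deviated together, and the block moved the higher count to 407.

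Of the 712 genes higher without inhibitors, 299 were also higher with them, which is 42.0% of the first list and 48.9% of the second. Of the 853 lower, 425 were also lower with them, 49.8% and 58.9% of the 2 lists. The sign of the difference was the same with inhibitors for 93.3% of the genes on each side. This share was not worked out for genes not called, so it has no background beside it. One gene of each list was called in the opposite direction: ENSG00000234841, at 2.44 to 4.73 in CRT34 and 9.01 to 11.9 in CRT35 DMSO, and SCO2, at 5.82, 12.6 and 23.4 in CRT34 and 0 in all CRT35 DMSO libraries. Differences with the inhibitors were smaller for FGF7, at -1.58 (adjusted p = 0.16), for ACTG2, at -1.76 (adjusted p = 0.102), and for SPP1, at 0.79 (adjusted p = 0.218). The test of the change itself was passed by none of them, with adjusted p-values of 0.15, 0.173 and 0.14. Without CRT34 Combo replicate 3, FGF7 passed it (-4.91, adjusted p = 0.0283) and so did SPP1 (3.21, adjusted p = 0.00192), whereas ACTG2 did not. NF-kappaB targets had 10 of 42 higher and none lower with inhibitors (limma, 22 of 42 at an unadjusted p under 0.05 in either direction), beside 2 and 4 without. ENSG00000234841 lost its call without CRT34 DMSO replicates 1 or 3 or CRT35 DMSO replicates 1, 2 or 3 (adjusted p up to 0.123). ACTG2 was at -6.90 without CRT34 DMSO replicate 2.

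The direct test of the change, the difference without minus that with inhibitors, called 2 genes (0.0104%), OR51B5 and TGFB2-OT1, with 1343 at an unadjusted p under 0.05. It called 223 without CRT34 Combo replicate 3, 10 without CRT35 DMSO replicate 1, 6 without CRT34 Combo replicate 1, 5 without CRT35 Combo replicate 1 and 4 without CRT34 DMSO replicate 1. Among the 223, TNFAIP3, a feedback inhibitor of NF-kappaB, was 8108, 11454 and 13855 in CRT34 and 8105, 3579.6 and 4227 in CRT35 DMSO, and 504, 929 and 10047 in CRT34 and 7022, 4631 and 3168 in CRT35 Combo. PTGS2, the inducible cyclooxygenase, was 20034, 77631 and 50738 in CRT34 and 17653, 6220.2 and 7467 in CRT35 DMSO, and 171, 528 and 16806 in CRT34 and 4706, 3571 and 1481 in CRT35 Combo. In both, replicates 1 and 2 of CRT34 Combo lay far below CRT34 DMSO and replicate 3 lay nearer to it. CXCL8, TNFAIP3 and PTGS2 were chosen after their values were seen.

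**Figure D5:**
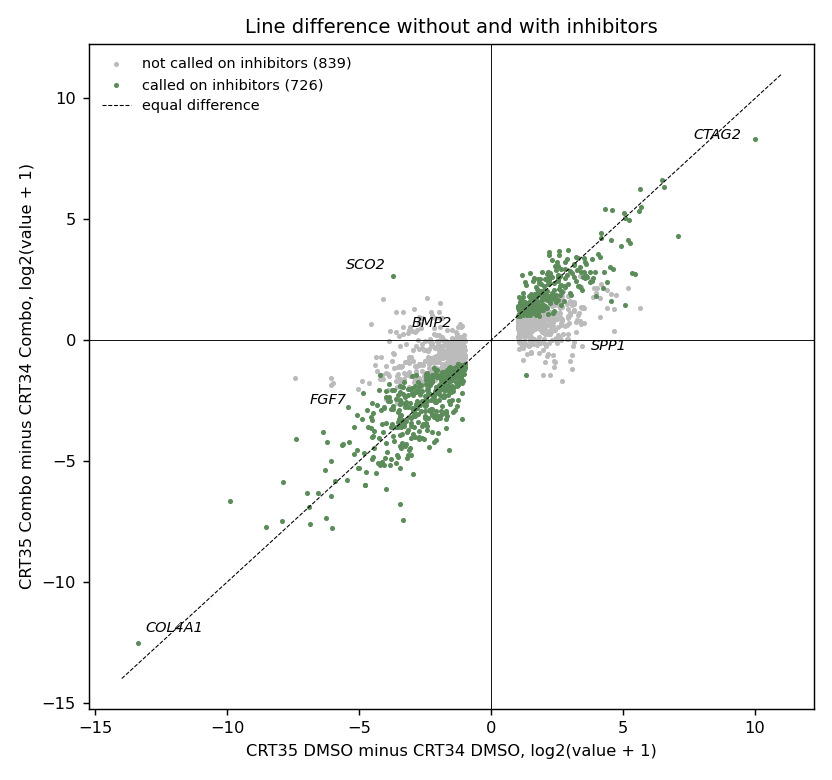
Difference between CRT35 and CRT34 on the log2(value + 1) scale without inhibitors (horizontal axis) and with them (vertical axis) for the 1565 genes called without inhibitors; green points were also called with them and the dashed line marks equal differences. Most points keep their sign, COL4A1 and CTAG2 lie far from 0 on both axes, and FGF7, BMP2 and SPP1 lie nearer 0 with inhibitors.

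The parental libraries are part of no difference tested here, and their means are given for position only. Their spread is pooled in the fit, and they count in the gene filter. Of the 712 higher in CRT35, the parental mean was below both lines for 322, above both for 110, nearer CRT34 for 156 and nearer CRT35 for 124. Of the 853 lower, it was below both for 325, above both for 200, nearer CRT34 for 144 and nearer CRT35 for 184. As shares, below both made up 45.2% of the higher and 38.1% of the lower genes, beside 41.8% of genes not called, and above both made up 15.4% and 23.4%, beside 40.8%. Among genes not called it was between the lines for 8.94% (nearer CRT34) and 8.51% (nearer CRT35). Genes with the parental line below both lines included POSTN, FN1 and TAGLN, with parental means of 50.2, 7504 and 200.2, and those above both included SOX11 and CDH19. TAGLN was at -3.15 without CRT34 DMSO replicate 1.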

How the data were processed

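RNA-seq libraries (3 in each of 7 groups) were processed by the authors with STAR 2.6.1a, RSEM, Picard and DESeq2 against GRCh38, per the labels. The deposited files hold a normalised expression signal per gene, which the authors scaled between libraries. Whole reads could not be recovered, so no count test was run. Of 58870 gene identifiers, 58472 matched GENCODE 44. Here the values were taken as log2(value + 1), genes with 10 or more in at least 3 libraries were kept, and 1 limma 3.58.1 fit (R 4.3.3) over all 21 libraries gave each difference, with Benjamini-Hochberg adjustment over 19290 genes and a call at 0.05 and 2-fold. A fold change on this scale understates that of low genes. Named genes were the 12 highest and 12 lowest by the rule given, list members with the lowest p, a panel of 24 genes and members of the longest runs. The fit was also run on simulated data with a small fixed spread for low genes, which does not test the calls made here. Same-numbered Combo libraries deviated together (r = 0.218, 0.253 and 0.207), which pairs them by the data, whereas DMSO libraries did not. The members and gene lists were chosen with earlier results of these data known. Columns other than the normalised value were not used. Depths cover counting error only, and the number of libraries limits the precision. Pandas 2.3.3, numpy 2.4.6 and Python 3.11.15 were used. Alternatives were other filters, pseudocounts, scalings, libraries and a replicate block.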

Additional observations from a re-analysis of the deposited data

Results flagged for a closer look

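OR51B5, an olfactory receptor gene that overlaps HBE1, differed between the lines in another way without inhibitors than with them, by the test of the change itself (limma, 2.39 on the log2 scale, adjusted p = 0.00523). It was 251, 426 and 438 in CRT34 DMSO and 276, 341 and 327 in CRT35 DMSO, where the libraries overlapped. With inhibitors it was 1411, 1481 and 811 in CRT34 and 206, 198 and 188 in CRT35, so that every CRT34 library lay above every CRT35 library. TGFB2-OT1, an RNA that overlaps TGFB2, passed the same test (7.45, adjusted p = 2.30e-05). It was listed at 0 in all 6 libraries without inhibitors and in all 3 CRT35 Combo libraries, and was 294, 182 and 97.3 in CRT34 Combo. In both genes CRT34 Combo replicate 3, the library that stood apart, was the lowest of its group. The overlap with another gene means that reads of the partner cannot be told apart.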

How the results depend on the processing

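Over the named genes and all alternatives, 2383 values kept their direction and side of the threshold, 337 lost a call, 2 gained one (SOX10 at -1.93 and WNT5A at -1.53) and 9 changed sign. With a replicate block 547 genes passed without inhibitors (246 higher and 301 lower, 528 of them shared with the 1565), and same-numbered DMSO libraries did not deviate together (r = 0.015, 0.032 and -0.019), so there the numbers pair nothing. Leaving out 1 library gave 1188 to 1593 calls, 544 to 691 higher and 629 to 902 lower. With inhibitors the range was 964 to 1480, 445 to 862 higher and 519 to 826 lower, the libraries of the compared groups alone gave 800 (332 higher and 468 lower), and the block gave 407 higher. The count for the change between conditions was 2, and was 4 with no filter, 4 after quantile normalisation, 4 after rescaling to equal totals, 12 with a pseudocount of 10, 1 with the compared groups alone, 1 with the block, and 2 to 223 on leaving out 1 library. The median at the end of chromosome 13 ran from -0.94 to -0.81 and that at the start of chromosome 5 from 0.75 to 0.88 with 1 library left out, the last of each without CRT34 DMSO replicate 1. Chromosome 3 was at -0.43 after rescaling. The panel genes ERBB3, CCND1, CCND3 and CDKN1A, which were not called, changed sign on leaving out 1 library, the log2 differences running from -0.65 to 0.50 for ERBB3, -0.0063 to 0.53 for CCND1, -0.15 to 0.11 for CCND3 and -0.32 to 0.18 for CDKN1A, among them 0.07 (ERBB3), 0.0025 and 0.018 (CCND3), and 0.06 and 0.096 (CDKN1A). The cause of these changes was not tested. Of 181 named calls, 123 held on leaving out each library and 93 held with the block. Depth limits genes at a few reads, such as SOX10.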
